A study of Drosophila melanogaster with 3 samples.

Results

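The set described here holds 443 distal peaks, 9.79% of the reproducible peaks of E(spl)mγ-HLH tagged with GFP in Drosophila embryos. A peak was distal when its summit lay more than 10 kb from the nearest transcription start site (TSS) of a protein-coding gene, counting all annotated transcripts, and the other 4081 reproducible peaks lay nearer. The chromatin came from whole embryos of both sexes, aged 0 to 16 h, of a transgenic line with GFP at the C terminus of E(spl)mγ-HLH, and was precipitated with an antibody against GFP in 3 biological replicates that form 1 group. The labels do not say whether the untagged gene was also present in these embryos. Whole embryos mix all cell types, so occupancy in few cells and weak occupancy in many cells cannot be told apart. No input, untagged or second-condition sample was analysed here, and every comparison below is between regions within the same embryos.

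E(spl)mγ-HLH belongs to the Enhancer of split complex, a cluster of basic helix-loop-helix-Orange (bHLH-O) genes that Notch signalling switches on. These proteins bind DNA as dimers, recruit the corepressor Groucho and hold back proneural genes in cells that do not become neural precursors. In flies, as in other animals, many enhancers of developmental genes lie far from the promoter they act on, inside long introns or in wide spaces between genes.

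The distal peaks lay a median of 15035 bp from the nearest TSS, with quartiles at 12189 and 21415.5 bp and a maximum of 85865 bp. Of the 443 peaks, 132 lay over 20 kb away, 52 over 30 kb and 11 over 50 kb.

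The windows reaching 50 bp to either side of 4 strong distal summits show the kind of sequence at such peaks, and are given on the + strand of dm6 from the RefSeq genome. Capitals mark matches to any of the 22 motifs searched on both strands.
RFeSP/chinmo interval, 2L:1638817-1638917: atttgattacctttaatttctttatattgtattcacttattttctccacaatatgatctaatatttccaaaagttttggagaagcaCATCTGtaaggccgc
fz intron, 3L:14304026-14304126: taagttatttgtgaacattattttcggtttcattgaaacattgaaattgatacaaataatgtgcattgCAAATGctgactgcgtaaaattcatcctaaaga
Glut3/abd-A interval, 3R:16798842-16798942: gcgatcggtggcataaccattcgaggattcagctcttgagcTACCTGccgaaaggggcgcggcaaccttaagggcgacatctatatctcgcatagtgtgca
Hr4 intron, X:1963871-1963971: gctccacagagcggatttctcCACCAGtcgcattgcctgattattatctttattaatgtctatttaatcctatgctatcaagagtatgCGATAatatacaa
The window beside chinmo held a single match, the E-box hexamer CAGATG, and the fz window held CAAATG, another E-box hexamer. The window between Glut3 and abd-A held CAGGTA, and the Hr4 window held CACCAG, an N-box hexamer, and CGATA. The E-box CACGTG and the related site CACGCG are known to be bound by bHLH-O repressors in vitro. Of 8 strong distal windows read in this way, which include these 4, none held the E-box of this kind, and 1 held the related site, between CG13970 and CG10651 (rank 226). The windows in osa (rank 51) and at a second peak beside chinmo (rank 208) held no match to any of the motifs.

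A second set of windows carries the most recurrent longer sequence. Among all sequences of 10 bases counted in the distal summit windows, CTGAGAGAAA had the largest excess over windows centred 500 bp to either side. It was present in 12 distal windows, against 1 left and 0 right flanking windows. The windows below run from 15 bases before this sequence to 105 bases after it, on the strand that reads CTGAGAGAAA (in capitals), and each contains the peak summit. They are the 6 of best rank in the set and those in nkd and Antp, 2 genes that recur in the results.
noc/CG33648 interval, 2L:14502723-14502852, − strand: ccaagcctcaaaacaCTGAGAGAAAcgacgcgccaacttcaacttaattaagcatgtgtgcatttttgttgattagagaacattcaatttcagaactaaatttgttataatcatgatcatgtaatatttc
CG6959 intron, 3R:11849797-11849926, − strand: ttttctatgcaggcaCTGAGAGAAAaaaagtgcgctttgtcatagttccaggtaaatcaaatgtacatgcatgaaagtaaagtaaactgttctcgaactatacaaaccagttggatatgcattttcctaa
Cyp6t1/GCS2alpha interval, X:21593986-21594115, + strand: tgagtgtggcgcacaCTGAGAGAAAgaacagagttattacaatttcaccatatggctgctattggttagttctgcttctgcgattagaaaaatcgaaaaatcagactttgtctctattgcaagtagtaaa
CG43759 intron, X:19018180-19018309, + strand: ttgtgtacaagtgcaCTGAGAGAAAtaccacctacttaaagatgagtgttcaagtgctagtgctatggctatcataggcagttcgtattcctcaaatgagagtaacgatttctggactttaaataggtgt
pnt intron, 3R:23326399-23326528, + strand: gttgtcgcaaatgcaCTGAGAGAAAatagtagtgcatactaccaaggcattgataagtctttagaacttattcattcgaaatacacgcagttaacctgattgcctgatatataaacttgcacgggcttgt
Lim1 intron, X:8774161-8774290, + strand: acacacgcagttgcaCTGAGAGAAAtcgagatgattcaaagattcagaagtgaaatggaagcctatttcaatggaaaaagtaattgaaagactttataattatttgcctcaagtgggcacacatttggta
nkd intron, 3L:19033229-19033358, + strand: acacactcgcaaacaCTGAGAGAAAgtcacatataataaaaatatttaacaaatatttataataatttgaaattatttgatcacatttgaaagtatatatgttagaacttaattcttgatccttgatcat
Antp intron, 3R:6920161-6920290, − strand: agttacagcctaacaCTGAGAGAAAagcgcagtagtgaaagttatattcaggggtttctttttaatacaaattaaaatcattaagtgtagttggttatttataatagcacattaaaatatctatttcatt
The summit lay 30 bp after the centre of CTGAGAGAAA in the noc interval, 88 bp after it in CG6959, 81 bp in the Cyp6t1 interval, 74 bp in CG43759, 75 bp in pnt, 70 bp in Lim1, 57 bp in nkd and 65 bp in Antp. In each of these windows the bases just before the 10-base sequence were CA. Beyond the shared bases the windows differed from one another.

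The position of the summit relative to CTGAGAGAAA was the same throughout the distal set. Within 300 bp of the 443 distal summits there were 32 copies, and in 32 of 32 the summit lay downstream along the strand of the copy, at 11 to 107 bp (median 58 bp). No copy had the summit upstream. In 31 distal peaks (7.0%) the summit lay within 100 bp downstream of a copy. Of these, 25 were top peaks of all 3 replicates, as were 267 of all 443 distal peaks (60.3%). All 32 copies were preceded by CA, and 21 by GCA. The choice of the sequence counted copies within 50 bp of the summit on either side, so closeness to the summit was part of it, whereas the strand of a copy was not used.

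The same was seen in each replicate's own list. The top peaks of a replicate are its peaks of highest signal, as many as the reproducible set holds. The distal ones had 30, 33 and 40 copies within 300 bp in replicates 1, 2 and 3, and the summit lay downstream in 30, 33 and 40 of them. The share of distal top peaks with a copy within 100 bp upstream of the summit was 5.0%, 6.11% and 7.22% in replicates 1, 2 and 3, against 1.73%, 1.62% and 1.70% of the other top peaks. The shares averaged 6.11% ± 1.11 for distal and 1.68% ± 0.0581 for other top peaks (SD, n = 3). For the other top peaks more than 0.5 kb from a TSS they were 3.07%, 2.83% and 3.03%. No test was run, since the sequence was picked on the distal windows of the reproducible set, which draws on the same 3 replicates. That choice favours a higher distal share in all 3 lists. In the reproducible set the share was 7.0% for distal peaks, 2.51% for peaks in genes 0.5 to 10 kb from a TSS, 3.90% for intergenic peaks at that distance and 0.465% for promoter peaks within 0.5 kb of a TSS.

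**Figure D1:**
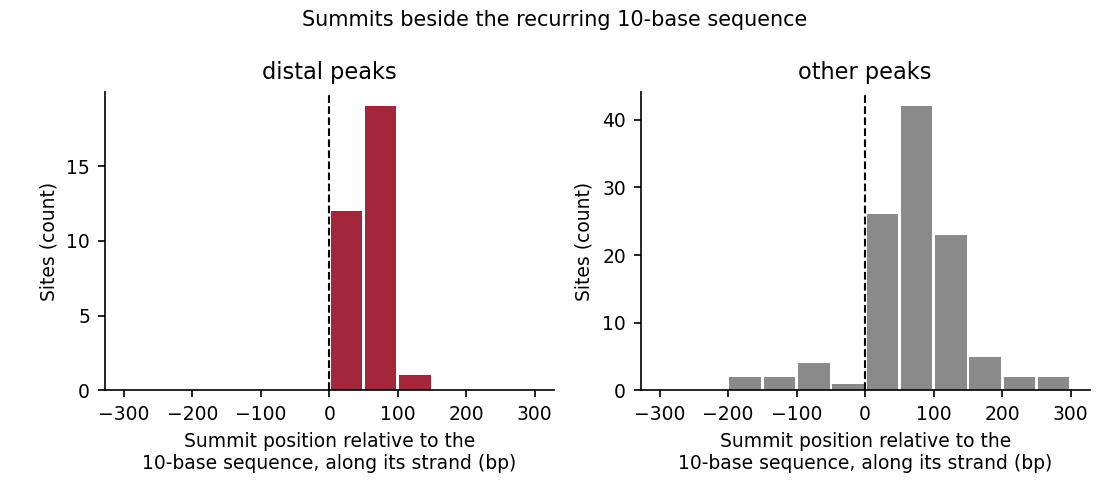
Positions of summits within 300 bp of a copy of the recurring 10-base sequence, along the strand of the copy (0 is the centre of the copy, positive values are downstream), as counts of copies in bins of 50 bp for distal peaks (left) and the other reproducible peaks (right). All 32 distal copies fall on the downstream side, and 100 of 109 do in the other peaks.

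The 10-base sequence occurred 325 times in all sequence more than 10 kb from a TSS, and 31 of these copies (9.54%) had a distal summit within 100 bp downstream. With distal sequence cut into tiles as long as a summit window, 2.71% of the distal summit windows held a copy, the share by which the sequence was chosen, against 0.0738% of the 391832 distal tiles. It contains GAGAG, the core of sites for the GAGA factor, so the matches overlap. GAGAG alone was found in 11.7% of distal summit windows and in 11.7% of the distal tiles. Of the 31 peaks, 17 lay in introns and 14 between genes, and none had the TSS of a noncoding gene within 500 bp. Of all distal peaks, 56.9% lay in introns and 39.1% were intergenic, and 4.74% had such a TSS.

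The genes beside these 31 peaks were of mixed kinds, and no share was set against a background. In introns they included pnt, an ETS activator of the epidermal growth factor receptor (EGFR) pathway, Lim1, a LIM-homeodomain factor, Snoo, a corepressor related to mammalian Ski and Sno, nkd, an inhibitor of Wingless signalling, and Antp, a Hox gene. Between genes they included noc, ems with Art9, sens-2 with Rca1, Dr with CG7567, sob with odd, and pyr with ths. The pyr and ths genes encode ligands of the fibroblast growth factor receptor Heartless. Among the others were the intron peaks of Ca-alpha1T, a calcium channel gene, of kirre, Sema1a, drl, CG6959, CG43759 and CG34347, and the peaks between Cyp6t1 and GCS2alpha, CG6154 and osy, and Set2 and Neto. The pnt peak ranked 1380, 1443 and 707 in replicates 1, 2 and 3, and the peak between sob and odd ranked 7515, 1345 and 2201. The sob and odd peak was thus a top peak in replicates 2 and 3 and not in replicate 1.

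Peaks thinned out with distance from promoters. The reproducible set had 11.1 summits per Mb of the 39.9 Mb of distal sequence (exact Poisson 95% interval 10.1 to 12.2, counting error only), against 43.4 per Mb nearer than 10 kb. Distal sequence made up 29.8% of the 6 main chromosome arms. Distal top peaks numbered 420, 442 and 457 in replicates 1, 2 and 3, which gave 10.5, 11.1 and 11.4 per Mb, against 43.7, 43.5 and 43.3 per Mb in nearer sequence. Within the distal range the density was 17.7 per Mb at 10 to 20 kb, 12.1 at 20 to 30 kb, 8.20 at 30 to 50 kb and 1.02 beyond 50 kb. Every base of the arms was counted, with 10.8 Mb beyond 50 kb, and repeats were not left out. Distal sequence includes 1956 kb in Myo81F and 699 kb in Pzl, which held no reproducible peak. The part of such sequence in the fall with distance was not tested. The interval at 10 to 20 kb (15.8 to 19.8) overlapped that at 5 to 10 kb (17.9 to 21.6). The replicates had 16.6, 17.7 and 17.7 per Mb at 10 to 20 kb, below the 19.9, 21.0 and 19.7 at 5 to 10 kb each time. The bins beyond 20 kb lay below those nearer than 10 kb in all 3 replicates, with intervals that did not overlap.

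**Figure D2:**
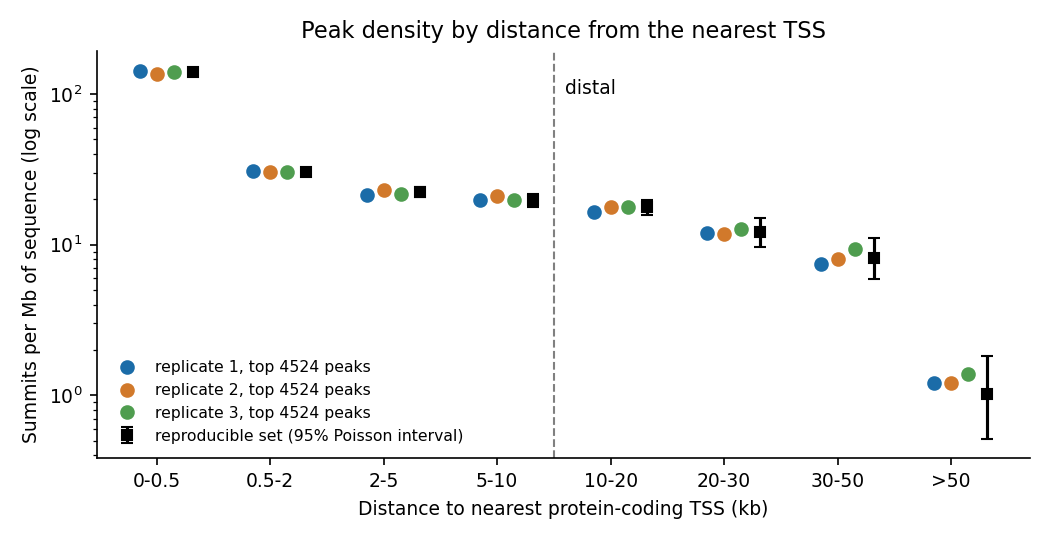
Summits per Mb (log axis) against distance to the nearest protein-coding TSS in kb, for the top peaks of each replicate (circles) and the reproducible set (squares with 95% Poisson intervals), with distal bins right of the dashed line. The replicates differ little within a bin, and the density at 10 to 20 kb is slightly below that at 5 to 10 kb.

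The chromosome arms differed in distal density. Arm 2L had 15.9 distal peaks per Mb of its distal sequence (95% Poisson interval 12.8 to 19.4), X had 12.9, 3L had 11.4, 3R had 10.5 and 2R had 6.57 (4.89 to 8.64). Chromosome 4 held 2 distal peaks in 0.343 Mb. In the replicates 2L had 15.9, 15.3 and 15.7 per Mb and 2R had 5.67, 6.05 and 6.57 per Mb, so 2L was above 2R each time. Distal sequence without a reproducible peak included 386 kb in CG17684 and 369 kb in DIP-lambda on 2R, and 124 kb in CG40006 on 2L. The cause of the difference was not tested.

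Distal peaks were rarer among strong peaks than among weak ones. They made up 17 of the 452 strongest reproducible peaks (3.76%) and 74 of the 452 weakest (16.4%), and their median rank was 2794. In replicate 1 the share of distal peaks was 4.69% among ranks 1 to 1131 and 13.4% in the last of 4 equal bins of top peaks. The same bins held 6.63% and 11.7% in replicate 2, and 4.95% and 14.9% in replicate 3. Below the top peaks the share was 22.8%, 13.6% and 20.9% in replicates 1, 2 and 3, against 9.28%, 9.77% and 10.1% within it. Replicate 2 had the flattest course. Its list was also the longest, with 30000 entries.

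**Figure D3:**
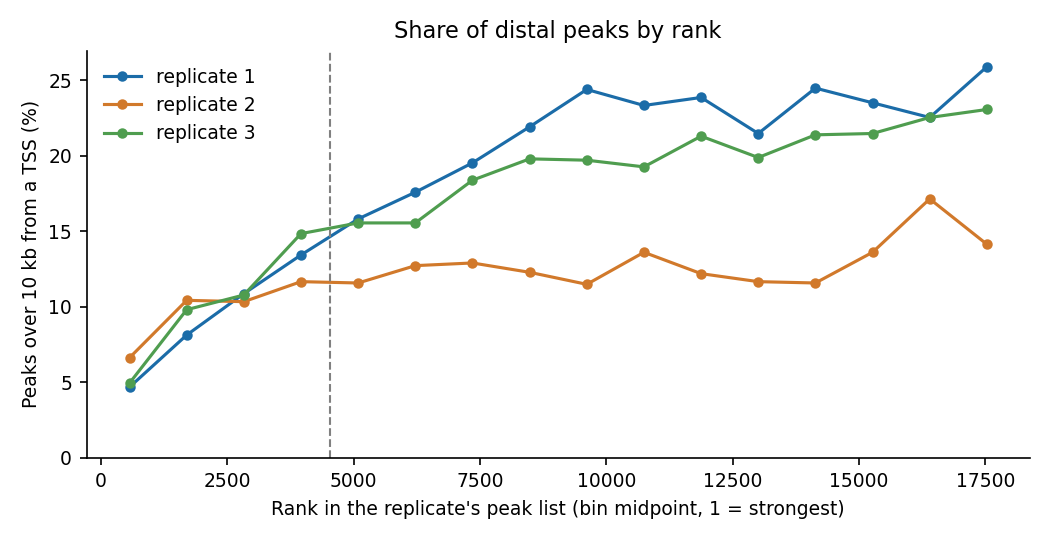
Share of peaks more than 10 kb from a TSS (%) against rank in each replicate's list in bins of 1131 peaks, 1 being the strongest, with the dashed line at the last top peak. The share is lowest in the strongest bin of all 3 replicates (4.69, 6.63 and 4.95%).

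Recurrence was read from how many replicates had a reproducible peak among their top peaks. Of the distal peaks, 267 of 443 (60.3%) lay in a top peak of all 3 replicates, against 2830 of 4081 of the others (69.3%) and 68.5% of all reproducible peaks. Another 121 were top peaks in 2 replicates, 51 in 1 and 4 in none. By replicate, 78.6%, 82.6% and 85.8% of distal peaks were top peaks, against 88.3%, 84.0% and 88.0% of the others. The difference was -4.46 ± 4.63 percentage points (SD, n = 3) and negative in 3 of 3 replicates, with an exact two-sided sign-flip p of 0.25, the smallest that 3 replicates allow. Any 3 differences of 1 sign give this p whatever their size, so it reflects only their shared sign. The median percentile of signal within a replicate's list was 87.4, 91.8 and 88.7 for distal peaks and 90.7, 92.7 and 91.0 for the others, a difference of -2.19 ± 1.22 with the same p of 0.25 (exact test). Both distal values were lower than those of the others in every replicate, and the SD of the difference in share exceeded its mean. Against intergenic peaks 0.5 to 10 kb from a TSS the top-peak share differed by -1.48 ± 2.68 points (exact p = 0.5) and was higher in distal peaks in replicate 3, at 85.8% against 84.6%.

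Just inside the 10 kb limit lay peaks nearest to the TSSs of nmo (10007 bp, rank 2076), CG42749 (10061 bp, rank 3295) and drl (10063 bp, rank 3034). Just outside lay peaks of Hr4 (9967 bp, rank 131), Efa6 (9954 bp, rank 1641) and sbm (9916 bp, rank 1778). At the far end of the range were 2 peaks in hth (85865 and 76924 bp, ranks 4385 and 1612), the peak between Or67d and CG12362 (68647 bp, rank 2955), the peak between Cyp12e1 and hth (63938 bp, rank 4364) and a peak in Sema1a (61629 bp, rank 2010). The farther hth peak ranked 4662, 3886 and 3530 in replicates 1, 2 and 3.

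Most distal peaks lay in introns. Of the 443, 252 (56.9%) were in introns of coding genes, 173 (39.1%) were intergenic, 11 lay in exons of noncoding genes between coding genes, 2 lay in noncoding exons within introns and 5 lay in untranslated regions. None lay in coding sequence. In all, 259 (58.5%) lay in the body of a coding gene, which covers 54.2% of distal sequence, and 184 lay outside. The density was 1.20 peaks per 100 kb inside coding genes and 1.01 outside. Of 254 intronic peaks whose intron could be numbered, 105 (41.3%) lay in the first intron of any transcript of a host gene. The share of distal intronic sequence in such introns was not computed, so this share has no background. The shortest intron holding each summit had a median length of 23806 bp. The nearest TSS belonged to the host gene for 170 of the 259 peaks in genes.

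A noncoding TSS lay within 500 bp of 21 distal summits (4.74%), whereas 1.51% of distal sequence lies that close to one. The best ranked of these were beside lncRNA:CR44917 between tsh and CG11629 (207 bp, set rank 300), lncRNA:CR46036 in osa (116 bp, rank 314), lncRNA:CR45251 between CG6168 and CG6163 (317 bp, rank 605), lncRNA:CR43838 between CG15452 and shakB (355 bp, rank 783) and lncRNA:CR34335 in DIP-alpha (162 bp, rank 1350). The peak beside lncRNA:CR44917 ranked 443, 267 and 267 in the replicates. No distal summit lay in an annotated transposable element, against 11.1% of distal sequence, and 4 of the 4081 other summits did. The count of 0 allows a share of up to 0.677%. How reads from repeats were treated is not given in the sources used here, and its part in this count was not tested.

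Of the 13945 coding genes, 918 had any sequence more than 10 kb from every coding TSS and so could host a distal peak, and 156 did (17.0%). The top peaks of replicates 1, 2 and 3 lay in 161, 146 and 154 of them, and 104 genes were hosts in all 3. Of the 156 hosts, 100 had 1 distal peak, 30 had 2, 14 had 3 and 12 had 4 or more. The share of hosts grew with the length of distal sequence in a gene, at 2.66% for genes with up to 5 kb, 12.6% for 5 to 10 kb, 21.7% for 10 to 20 kb, 26.4% for 20 to 50 kb and 34.3% above 50 kb. Per 100 kb the order differed, with 1.15, 1.94, 2.06, 1.59 and 0.744 peaks. The genes with the most distal sequence thus had the highest share of hosts and the fewest peaks per length of it. Of the 102 genes above 50 kb, 35 were hosts. The others include Myo81F with 1956 kb of distal sequence, Pzl with 699 kb and lovit with 424 kb. None of these held a distal top peak in any replicate, and their part in the low density was not tested.

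The 12 genes with 4 or more were led by kirre, an immunoglobulin-domain receptor that founder myoblasts use in muscle fusion, with 11 distal peaks. It held 9, 9 and 11 distal top peaks in replicates 1, 2 and 3. Next came sbb, a transcriptional corepressor also known as scribbler, with 8 peaks (7, 8 and 9 in the replicates), which span 17.8 kb. The Hox cofactor hth had 6 (6, 6 and 6), Antp had 6 (5, 5 and 6), and Snoo had 5 (5, 5 and 6). The 5 peaks of CG46458 lie in its overlap with Antp and are the same summits counted under both genes. For pnt there were 5 peaks (6, 5 and 6) in 11.9 kb of distal sequence, or 42.2 per 100 kb, the highest density of the 12, followed by sbb at 31.4 per 100 kb. The adhesion receptor ed had 5 peaks (5, 4 and 4). The Cullin-3 adaptor rdx, which acts on the Hedgehog effector Ci, had 4 (3, 4 and 4), the axon guidance receptor Sema1a 4 (4, 5 and 4), SKIP 4 (5, 5 and 3) and luna, a Krüppel-like zinc-finger factor, 4 (2, 3 and 4). The count differed between replicates by at most 2 in each of these genes.

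**Figure D4:**
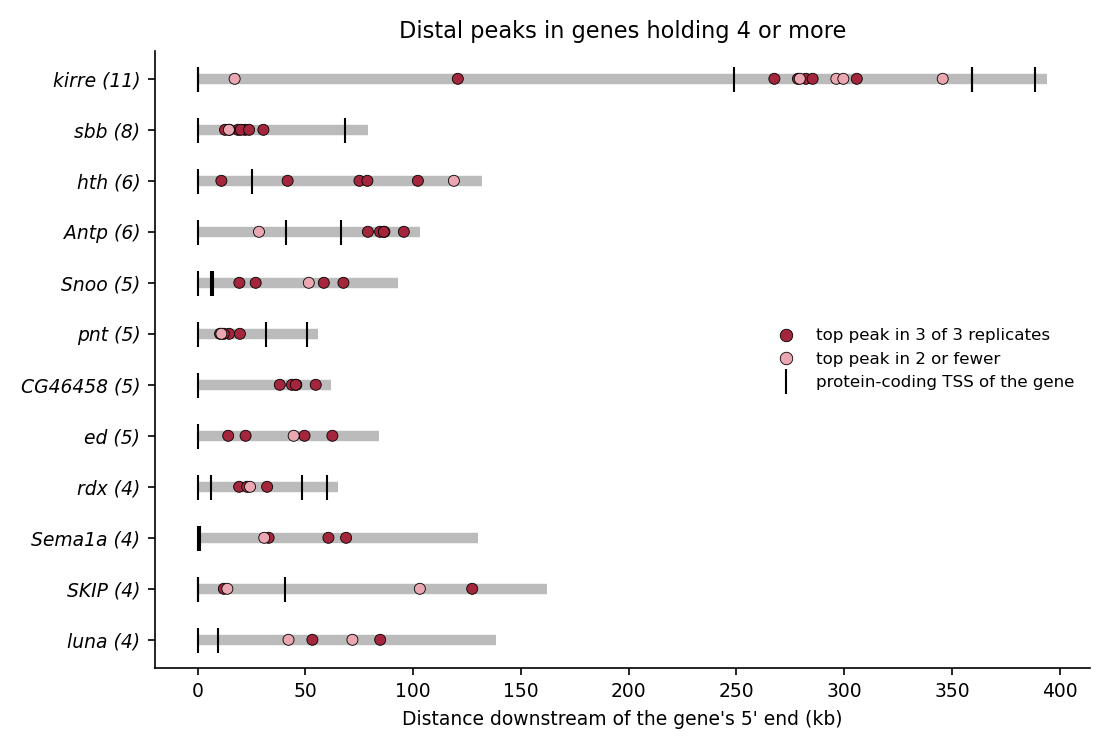
The 12 coding genes with 4 or more distal peaks (number in brackets), drawn to scale from the 5′ end in kb, with grey bars for gene bodies, black ticks for the gene's coding TSSs and circles for distal summits, dark where the peak was a top peak of all 3 replicates. The peaks of sbb, pnt and rdx fall within short stretches, while those of hth, Snoo and ed are spread over the gene. A distal summit can lie only in distal sequence, which comes to 25.5, 11.9 and 22.6 kb in sbb, pnt and rdx. In hth, Snoo and ed it comes to 102, 66.4 and 69.0 kb, so the contrast cannot be told apart from this limit.

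Linking distal summits up to 10 kb apart gave 301 groups, in which 218 peaks stood alone and 225 (50.8%) shared a group. No such share was computed for the other peaks or for positions drawn from distal sequence. Whether distal peaks cluster was therefore not tested. The peaks in sbb formed a group of 8, those between hng3 and CG13898 a group of 7 within 25.6 kb, and those between NijA and CG43245 a group of 6 within 21.7 kb. The interval beside chinmo, a BTB zinc-finger factor of neuronal temporal identity, held 5 peaks within 13.9 kb. Its strongest ranked 99, 247 and 89 in replicates 1, 2 and 3, and another ranked 137, 236 and 303. In the interval between NijA and CG43245 the strongest peak (rank 279 in the set) ranked 267 and 323 in replicates 1 and 2 and had no match in replicate 3. Between Wnt4 and wg, 2 Wnt ligand genes, 3 peaks lay within 2.41 kb.

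The strongest distal peak, ranked 32 in the set by the authors' signal value, lay between Su(z)2, a Polycomb group gene, and CG13323 (summit 2R:13035344, dm6). It ranked 37, 27 and 30 in replicates 1, 2 and 3. The next, ranked 51, lay in intron 4 of osa, which encodes a subunit of the Brahma chromatin-remodelling complex (summit 3R:17704406), in an exon of the noncoding gene lncRNA:CR46035. It ranked 52, 47 and 66 in the replicates. Both were among the strongest peaks of all 3 replicate lists.

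The other genes at the 20 strongest distal peaks are given here with what they are known for. Besides Su(z)2, osa and chinmo, peaks lay in introns of fz, a Wingless and planar polarity receptor (rank 143, with 386, 66 and 190 in replicates 1, 2 and 3), of Hr4, an ecdysone-responsive nuclear receptor (rank 169, with 144, 193 and 188), of sbb (rank 272) and of gpp, a histone methyltransferase (rank 371). One lay in an untranslated region of the polarity gene baz (rank 183), and rdx held ranks 190 and 520. Between genes, peaks lay beside abd-A, a Hox gene (rank 163, with 184, 81 and 338), beside tsh, a homeotic zinc-finger gene (rank 300), beside noc (rank 366) and between dati and lgs on chromosome 4 (rank 378, with 247, 351 and 938). The others lay in osa (rank 314), beside chinmo (rank 208), between CG13970 and CG10651 (rank 226), between NijA and CG43245 (ranks 279 and 504) and in CG6959 (rank 524). The fz peak was stronger in order in replicate 2 than in the others, whereas the Hr4 peak kept a similar place in all 3.

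The lists differed in their share of hosts, with a set of signalling pathway genes highest. Of 9 listed pathway genes for the signals Wg, Hh, Dpp and JAK/STAT that have distal sequence, 6 held a distal peak (66.7%). This compares with 17.0% of all eligible genes, and 6, 5 and 6 of the 9 did in replicates 1, 2 and 3. The hosts were fz, the glypicans dlp and dally, nkd, the Dpp antagonist sog, and fz2. The ligand genes dpp, wg, Wnt4, upd1 and upd3 flanked intergenic distal peaks without holding one. The 10 listed genes of the EGFR and FGF receptor pathways with distal sequence had 3 hosts (2, 4 and 4 in the replicates). These were pnt, the EGFR ligand vn and the ligand-trafficking protein S. The genes Raf and arr, hosts of 1 distal peak each, are in neither of these 2 lists, so the shares depend on which members were listed. Of 6 Notch pathway genes 1 was a host (16.7%, near the share of all eligible genes), the receptor gene N itself (rank 940), with 2, 2 and 1 in the replicates. Hosts had more distal sequence than other eligible genes, a median of 23.3 kb against 9.17 kb, and the lists were not matched for this.

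Transcription factor lists ranged from 0 to 41.7% hosts, against 17.0% of all eligible genes. In all, 191 coding genes flanked an intergenic distal peak, and the counts of flanking genes below were not set against a background share. Nuclear receptors and ecdysone response factors had 5 hosts of 12 (41.7%, and 6, 6 and 3 in the replicates): Hr4, ftz-f1, Eip75B, Eip93F and Hr3. Zinc-finger, Sox and BTB factors of the nervous system had 5 of 15 (33.3%), with jing, luna, pros and bab2 of best rank. In that list 6 more members flanked distal peaks only, among them chinmo, tsh, sob and odd. Hox genes and cofactors had 2 of 7 (28.6%), hth and Antp, with 12 peaks in all, and abd-A and Abd-B flanked others. Other homeodomain and Pax factors had 5 of 21 (23.8%, and 5, 2 and 5 in the replicates), led by Lim1, ct, inv and lbl. In that list 11 more were flanking only, including ems, Dr, tup, vvl and oc. None of the 5 eligible bHLH activators and repressors held a distal peak (0, 1 and 0 in the replicates). The interval between the bHLH-O repressor gene hry, named hairy, and SrpRbeta held 2 distal peaks.

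Neuronal surface and signalling lists lay on both sides of the 17.0% share of all eligible genes. Axon guidance genes had 8 hosts of 24 (33.3%, and 8, 8 and 7), with Sema1a, the attractant NetA, dnt and Ptp10D of best rank. Cyclic nucleotide signalling had 5 of 14 (35.7%, and 4, 2 and 5), with the phosphodiesterase dnc, Pka-R2, rg and Pka-C3 of best rank. The dpr and DIP immunoglobulin proteins, which pair neurons at synapses, had 1 of 20 (DIP-alpha, 1 in each replicate). Their distal sequence came to 942 kb, or 0.106 peaks per 100 kb. Of this sequence, 369 kb lay in DIP-lambda and 114.5 kb in dpr21, both on 2R. Neither gene held a distal top peak in any replicate, and their part in the low density was not tested. Ion channels and transmitter receptors had 3 of 30 (10%), namely Ca-alpha1T, nAChRalpha6 and Elk. The beat and side proteins had 3 of 18 (side, beat-IIIc and beat-VI), or 16.7%, near the share of all eligible genes. Cadherins, teneurins and leucine-rich-repeat proteins had 2 of 15 (kek6 and Ten-a) and RNA-binding proteins 2 of 15 (msi and pum), each 13.3%. Muscle and mesoderm genes had 1 of 11 (Dys), or 9.09%, in a list that does not include kirre, a host of 11 distal peaks. The single eligible chemosensory receptor gene had none, and no ribosomal protein gene was eligible.

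**Figure D5:**
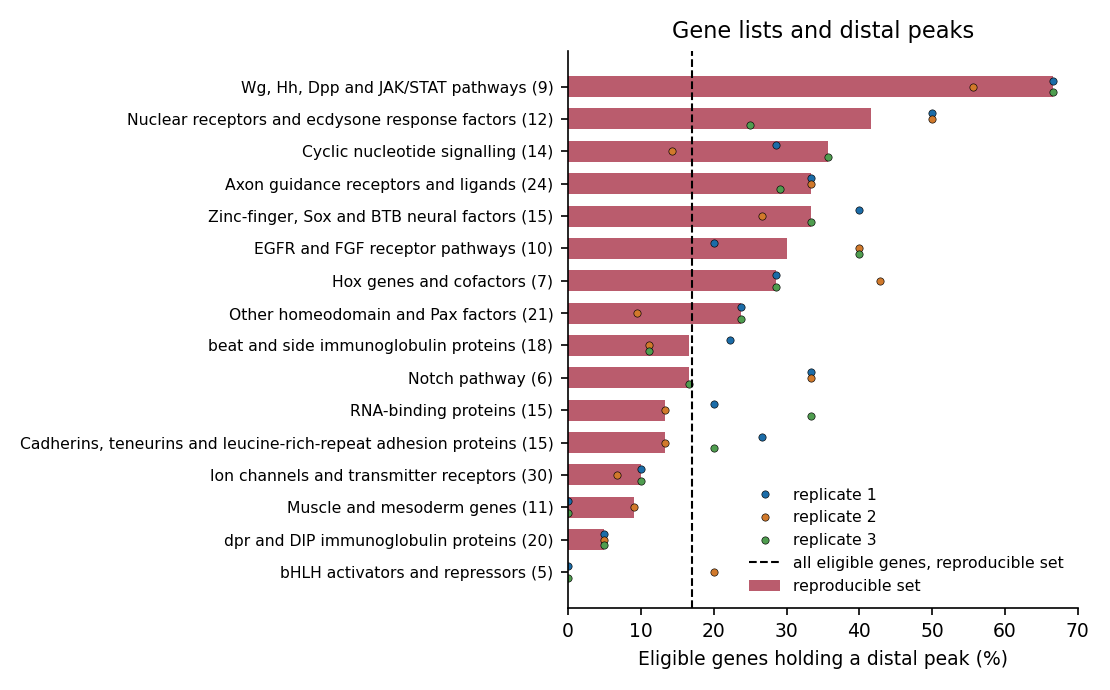
Share of eligible coding genes (%) holding a distal peak in each gene list shown, all with at least 5 eligible genes (number in brackets), for the reproducible set (bars) and the top peaks of each replicate (circles), with the share over all 918 eligible genes as a dashed line (17.0%). The Wg, Hh, Dpp and JAK/STAT list is highest at 66.7%, and the dpr and DIP list has 5% in each replicate.

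The GC content of distal summits was below that of promoter and nearer intergenic peaks in 3 of 3 replicates, and close to that of nearer peaks in genes. GC content in the summit windows was 34.4%, 33.5% and 33.6% in replicates 1, 2 and 3 for distal peaks, and 35.3%, 34.9% and 34.6% for the others. The difference was -1.10 ± 0.245 percentage points (SD, n = 3; exact two-sided p = 0.25, the smallest possible). Against the other peaks more than 0.5 kb from a TSS it was -0.143 ± 0.238 and changed sign between replicates (exact p = 0.5). That value joins 2 parts, a difference of -0.991 ± 0.135 from intergenic peaks 0.5 to 10 kb away, negative in 3 of 3 (exact p = 0.25), and of 0.187 ± 0.288 from peaks in genes at that distance, positive in 2 of 3 (exact p = 0.5). Flanking windows 500 bp from distal summits had 42.1% ± 0.0593 GC, and the summits differed from them by -8.22 ± 0.496 points (exact p = 0.25, lower in 3 of 3). In wider windows, reaching 100 bp to either side of the summit, distal peaks differed from all others by only -0.106 points (exact p = 0.75).

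Promoter motifs were scarce in the distal windows, as they were in the other windows away from promoters. TATCGATA, the DRE site of many housekeeping promoters, was in 0 of 443 distal windows, which allows a share of up to 0.677%, against 2.16% of the other windows and 3.95% of promoter windows. Its share was also low in the nearer peaks over 0.5 kb from a TSS, at 0.0718% in genes and 0.371% between genes. It was absent from the distal windows of all 3 replicates. Its share was 0.241% in distal tiles, so a distal share at that level was not detectable at this number of windows. The shorter CGATA, which TATCGATA contains, was in 10.1%, 9.37% and 9.98% of distal windows, against 18.1%, 17.7% and 17.5% of the others, and in 10.8% ± 0.654 of the distal flanks (SD, n = 3). The difference from the others was -7.98 ± 0.392 points (exact two-sided p = 0.25, adjusted p = 0.37 over 22 motifs). Against the others over 0.5 kb from a TSS it was -1.03 ± 0.644 points, so most of the gap was to promoter peaks, at 24.1%.

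E-box hexamers were mixed. The symmetric CAGCTG was in 1.99% ± 0.364 of distal windows and 4.28% ± 0.310 of the others, and CAACTG in 3.52% ± 0.547 and 4.90% ± 0.236 (SD, n = 3). Both were lower in distal windows in 3 of 3 replicates. For CAGCTG the gap was widest to promoter peaks, at 5.36%, with 3.24% in nearer peaks in genes and 2.62% in nearer intergenic peaks. Against the others over 0.5 kb from a TSS the CAGCTG difference was -1.07 ± 0.312 points. Against the intergenic ones alone it was -0.624 ± 0.525 points. Each was negative in 3 of 3 replicates. CAATTG was in 5.75% ± 0.709 of distal windows against 3.92% ± 0.229, and CAAATG in 12.4% ± 1.61 against 9.79% ± 0.123, higher in 3 of 3. The distal flanks held them at 5.01% ± 0.527 and 12.8% ± 1.43, and the distal summits differed from these flanks by 0.74 ± 1.19 and -0.40 ± 2.16 points, so for neither was a difference from the surrounding distal sequence seen beyond the spread between replicates. For the difference between distal and other windows, each of the 4 had exact p = 0.25, the smallest that 3 replicates allow, and adjusted p = 0.37. CACGTG was in 4, 4 and 3 distal windows in replicates 1, 2 and 3, or 0.844% ± 0.142, against 0.744% ± 0.0734 of the other windows and 0.997% ± 0.0723 of the distal flanks. CACGCG was in 1.08% ± 0.367 of distal windows, 1.20% ± 0.137 of the others and 2.15% ± 0.175 of the distal flanks. Neither differed between distal and other peaks with 1 sign in all replicates. Of the N-box hexamers, CACTAG was more frequent at distal summits than in their flanks, by 1.87 ± 0.375 points (higher in 3 of 3). For CACTAG the other peaks exceeded their own flanks by 1.86 ± 0.0126 points (3 of 3). CACAAG exceeded the distal flanks by 0.837 ± 0.576 points (3 of 3). CACCAG differed from them by 0.198 ± 0.584 points with mixed signs, and CACGAG by -1.84 ± 0.387 points (lower in 3 of 3). A match here is a description of letters in a window, not a binding site.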

How the data were processed

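Chromatin immunoprecipitation with sequencing was analysed from the deposited peak lists of 3 biological replicates, their pooled list and the reproducible set in dm6. A list was called for each replicate from its own alignment, with a control, per the deposited text records, and the reproducible set (the authors' optimal irreproducible discovery rate, IDR, list) derives from the pooled and replicate lists. Aligner, peak caller and cutoff of the IDR step are not given in the sources, the control was not analysed here, and the dm3 lists were not used here. Each deposited peak has a signal value, a coverage-type score that the authors did not normalize between lists. It set ranks within each list and nothing else. The deposited q-value on the −log10 scale served only the alternative at a q-value under 0.05. The deposited offset gave the summit. No counts were given, so depth is unknown. The replicate 2 list holds 30000 entries, a round length.

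Genes came from Ensembl release 115 (BDGP6.54) and sequence from the RefSeq genome of the same assembly. In that genome, 99.5% of annotated coding transcripts began with ATG. A replicate peak matched a reproducible peak when it held its summit. Motifs were sought on both strands in windows reaching 50 bp to either side of the summit of each replicate's matched peak and of points 500 bp away. They were the 10 E-box hexamers CANNTG, the 4 N-box hexamers CACNAG, the bHLH-O site CACGCG, the Su(H) site, the GAGA core GAGAG, the Zelda site CAGGTA, the DRE TATCGATA and its part CGATA, the repeat CACACA and the A run AAAAAA. Tests were exact two-sided sign-flip permutations over replicates, with Benjamini-Hochberg adjustment over the 22 motifs. Other values are descriptions. Functions were tested on simulated data. Python 3.11.15 with numpy 2.4.6, pandas 2.3.3, scipy 1.17.1 and matplotlib 3.10.9 were used.

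The members and the 19 gene lists were chosen with earlier results of these data known, and 1 list and 1 group of peaks are not reported here. Genes named are hosts or flanking genes of the 20 strongest distal peaks, hosts of at least 4, up to 4 per list by best rank, those at the 10 kb limit and farthest from a TSS, and the 5 best ranked noncoding TSSs within 500 bp. The recurring 10-base sequence and the genes beside it, the groups of linked peaks and the flanking genes of the lists were chosen after their values were seen. Alternatives were other distances and annotations, the upper part of the set, the pooled list, wider windows and leaving out each replicate.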

Additional observations from a re-analysis of the deposited data

How the results depend on the processing

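The number of distal peaks followed the distance and the annotation used. The 443 peaks became 872 at 5 kb and 132 at 20 kb, 212 with TSSs of all annotated genes, 172 in the upper 50% of the set by signal and 1026 in the pooled list at a q-value under 0.05. Hosts numbered 156, and 318, 57, 99, 67 and 281 under those settings. The density of 11.1 per Mb became 4.31 in the upper 50% and 25.7 in the pooled list. With TSSs of coding and noncoding genes but no transposable elements, an alternative chosen after seeing the data, there were 274 distal peaks at 8.59 per Mb. Requiring a top peak in both remaining replicates, leaving out each replicate gave 293 to 322 distal peaks, 108 to 116 hosts and 7.34 to 8.06 per Mb, lowest without replicate 3 in each case. RefSeq genes gave 444 peaks and 158 hosts.

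The mean differences between distal and other peaks in top-peak share, signal percentile and GC content stayed negative under every alternative run on them. For GC the difference nearly vanished in windows of 100 bp to either side, at -0.106 points (exact sign-flip p = 0.75), and the replicates did not share 1 sign. GC was also 0.187 points higher than in peaks in genes 0.5 to 10 kb from a TSS. With 3 or 2 replicates no exact test could pass 0.05 (smallest p 0.25 and 0.5). The share difference ranged from -5.99 to -1.80 points when 1 replicate was left out. The number of the 22 motifs with 1 sign in all replicates ranged from 11 to 19, against 15. Distal minus other signs of the 2 bHLH-O sites were unstable: CACGTG became -0.17 at 5 kb, -0.24 at 20 kb and -0.20 in windows of 100 bp to either side, and CACGCG became 0.11 without replicate 3, 0.24 against others over 0.5 kb from a TSS, 0.38 at 20 kb and 0.0205 in the wider windows. CAATTG became -0.13 at 5 kb. The cause was not tested. No paired analysis was possible between conditions because the study has 1 group, and distal and other peaks were compared within each replicate. Depth is unknown, so no limit from it can be given.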

Other observations

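Other short sequences were also more frequent in distal windows than beside them, described here as values only. The hexamer CAGTGC, which overlaps the longer sequence around CTGAGAGAAA on its other strand, was in 12% of distal windows, 4.36% of their flanks and 7.24% of the other windows, as means over the 3 replicates. GAGAAA, also part of it, was in 13.8%, 8.43% and 8.83%.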
